A study of Mus musculus with 16 samples.

Results

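Leukaemia cells of mouse spleen and of mouse bone marrow were compared after 7 days of doxycycline, the drug that switched on a knockdown of their driving fusion gene. The comparison takes the 3 spleen doxycycline libraries against the 3 bone marrow doxycycline libraries, 6 of the 16 libraries sequenced, in a model of these 6 alone. It asks which tissue differences were left after the 7 days of knockdown, and which of them were carried by 1 spleen library.

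All cells came from mouse leukaemia expressing CBFB-MYH11 and GFP, carried a doxycycline-inducible short hairpin RNA against MYH11 per the design text, and grew in congenic recipients. Doxycycline mice drank 3 mg/ml doxycycline in 5% sucrose water and control mice drank 5% sucrose water, and after 7 days cells with GFP were isolated by sorting from either organ. The 4 groups compared, bone marrow and spleen with and without doxycycline, hold 3 libraries each. For the controls the labels mention primary cells with the fusion but not the hairpin, and no group received doxycycline without it, so drug and knockdown cannot be told apart. No age or strain of the mice is stated in the labels, which number the libraries of a group but do not tie each number to its own animal. P-values therefore measure the spread between these libraries, which may be technical.

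CBFB-MYH11 is the fusion made by inversion 16 in acute myeloid leukaemia. It joins core binding factor beta, the partner that stabilises RUNX1 on DNA, to a smooth muscle myosin heavy chain, and it blocks the maturation of blood precursors. Bone marrow is the site of adult blood formation, and in mice the spleen also makes red cells, so leukaemia cells of the same disease meet different surroundings in both organs.

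The 6 doxycycline libraries held 23122660 to 31201880 expected counts, and the values below are CPM (counts relative to library size), scaled over the 12 libraries of 7 days, unless another scale is named. Cbfb, whose reads include those of the fusion, stood at 90.3, 88.9 and 95.1 CPM in bone marrow under doxycycline and at 118, 54.2 and 122 CPM in spleen, against 118 to 143 CPM in the 6 controls. Spleen replicate 2 was the lowest of the 12 libraries, whereas spleen replicates 1 and 3 lay near the lower controls. Mouse Myh11 had 0 to 9 expected counts in these 12 libraries, and the fusion transcript itself was not measured. Gata2 and Kit, expressed in immature blood cells, were abundant, while the pan-leukocyte gene Ptprc stood at 0.28 to 3.73 TPM (a level scaled for transcript length and depth) in the 6 doxycycline libraries and Cd34 at 0 to 0.11 TPM. Defining markers of T cells (Cd3e, at most 0.22 TPM) and of endothelium (Cdh5, at most 0.02 TPM) were near 0 in the same libraries.

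The 3 spleen doxycycline libraries stood apart from one another. The chi-square per degree of freedom between their pairs was 241 to 519, against 8.06 to 52.6 in the other 7-day groups. Set against the range of the 3 spleen controls, replicate 1 had 4.86% of its genes more than 1 log2 unit beyond, replicate 2 had 20.5% and replicate 3 had 10.3%. The 3 bone marrow doxycycline libraries had 13.9 to 15.4% of genes beyond the same range, so replicate 1 was nearer to the untreated spleen than any other treated library and replicate 2 was farther. Haemoglobin messages took 0.526, 7.15 and 3.73% of the counts of spleen replicates 1, 2 and 3, 4.5 to 5.6% in bone marrow under doxycycline and 0.212 to 0.467% in the controls. Every result below is therefore read library by library.

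**Figure D1:**
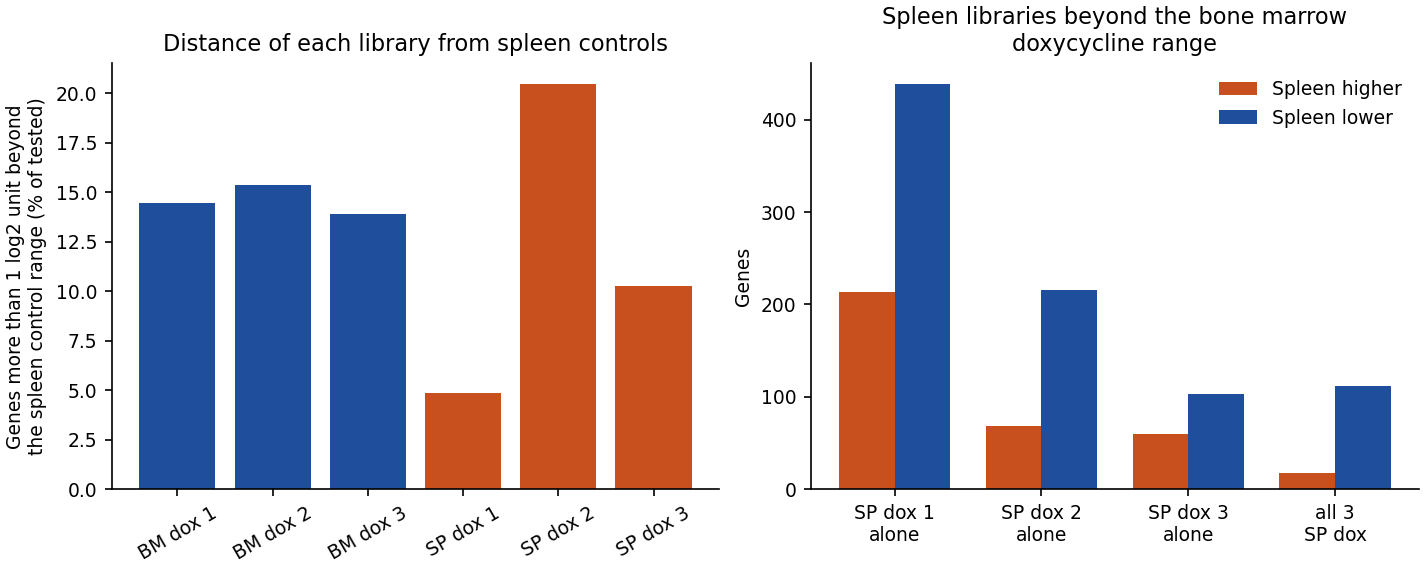
Left, share of the 13325 genes tested that lay more than 1 log2 unit beyond the range of the 3 spleen controls, 1 bar per doxycycline library (BM, bone marrow; SP, spleen). Right, number of genes for which 1 spleen library alone, or all 3, lay beyond the bone marrow doxycycline range, with separate bars for higher and lower genes. Spleen replicate 1 has the lowest bar on the left (4.86%) and the tallest pair on the right (214 higher and 439 lower, 653 genes together).

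No gene passed the test across the 6 libraries. With edgeR's quasi-likelihood test 0 of 13325 genes (0%) were called at a Benjamini-Hochberg adjusted p under 0.05, and 1067 (8.01%) had an unadjusted p under 0.05, 452 higher (3.39%) and 615 lower (4.62%) in spleen. The lowest edgeR adjusted p was 0.281. Limma-voom, with or without sample quality weights, also called 0, a model of all 16 libraries called 0 higher (0%) and 7 lower (0.0485%), a model of the 12 libraries at 7 days called 14 higher (0.099%) and 43 lower (0.304%) and the Wald test of DESeq2 called 48 higher (0.195%) and 124 lower (0.504%). Leaving out spleen replicate 2 raised the count to 414 genes, 270 higher (1.96%) and 144 lower (1.04%), whereas it stayed at 0 when any other of the 6 libraries was left out. Of those 414 genes, 91 had spleen and bone marrow values that did not overlap once replicate 2 was included. Of the 56 genes given with a fold change, 3 passed in the 16-library model, 19 in the 12-library model, 25 with DESeq2 and 21 without spleen replicate 2. The 12- and 16-library models share 1 spread per gene among all their groups. That spread may be too small for the treated spleen libraries, so passing there is weaker evidence than passing in the 6-library model.

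The groups did not overlap for 876 genes higher in spleen (6.57% of those tested) and 1222 lower (9.17%). Those 2 shares are the background for every count below of genes whose 3 and 3 libraries did not overlap. With 1 spleen library left out the shares were larger, 13.4% higher and 16.6% lower without replicate 1, 22% and 22.6% without replicate 2 and 12.9% and 14.9% without replicate 3. A stricter description asks how many spleen libraries lay more than 1 log2 unit beyond the whole bone marrow range: all 3 did for 130 genes, 18 above (0.135%) and 112 below (0.841%). In the control mice the same description held for 437 of 13125 genes.

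Among the genes shared by all 3 spleen libraries, the smallest p belonged to Gkn3, which encodes a secreted gastrokine (GRCm38 chromosome 6, 87383256 to 87388935). Gkn3 stood at 14.2, 17.1 and 18.1 CPM in bone marrow and 2.3, 1.75 and 2.87 CPM in spleen under doxycycline, so the groups were far apart and the spleen libraries were close to one another. Its log2 fold change, spleen over bone marrow here and below, was −2.85 ± 0.28 (SE; n = 3 and 3; edgeR adjusted p = 0.281). The controls of both tissues held 0.48 to 2.4 CPM, so treated spleen lay near the untreated level and treated bone marrow above it.

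Ptpre, a receptor-type tyrosine phosphatase (chromosome 7, 135537481 to 135686293), stood at 54.7, 58.1 and 50.4 CPM in treated bone marrow and 26.1, 22.8 and 24.1 CPM in treated spleen (log2 fold change −1.17 ± 0.15; edgeR adjusted p = 0.399). The 3 spleen libraries differed from one another by far less than from the marrow. Sumf1, which activates sulfatases, stood at 53.6, 57.6 and 58.2 CPM in bone marrow and 28.1, 29.1 and 24.4 CPM in spleen (−1.07 ± 0.15; edgeR adjusted p = 0.399). Itpr1, the receptor that releases calcium from the endoplasmic reticulum on binding inositol trisphosphate, stood at 89.5, 86 and 82.6 CPM and 49.2, 36.8 and 39.1 CPM (−1.06 ± 0.17; edgeR adjusted p = 0.399). Sumf1 and Itpr1 are neighbours on opposite strands of chromosome 6, at 108107028 to 108185582 and 108213096 to 108551109. The 2 gene models do not overlap, and both showed the same order, marrow above spleen.

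3 more genes of similar level behaved alike. P4htm, a transmembrane prolyl hydroxylase, stood at 21.9, 26.1 and 22 CPM in bone marrow and 10.4, 8.8 and 9.82 CPM in spleen (−1.29 ± 0.18). Acad10, an acyl-CoA dehydrogenase family member, stood at 24.1, 23.4 and 24.2 CPM and 9.48, 10.7 and 12.1 CPM (−1.16 ± 0.18). Tmem44 stood at 113, 116 and 87.7 CPM and 36.3, 40.1 and 53.4 CPM (−1.30 ± 0.21). For each of these 3 the groups did not overlap, and the spleen values of P4htm and Acad10 lay at or near the 6.92 to 10.5 and 8.22 to 10.5 CPM of the 6 controls. Those of Tmem44 lay above its control range of 22 to 34.5 CPM. Of the 8 lower genes with the smallest p and a mean of at least 3 log2 CPM, Ptpre and Sumf1 also passed in the 16-library model, and Gkn3, Ptpre, Sumf1, P4htm, Acad10, Tmem44 and Itpr1 passed in the 12-library model, with DESeq2 and without spleen replicate 2.

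The eighth was Mpo, myeloperoxidase of the primary granules of immature myeloid cells. It stood at 23.2, 28.6 and 14.6 CPM in treated bone marrow and at 0.939, 0.438 and 2.36 CPM in treated spleen, a log2 fold change of −4.18 ± 0.64 (edgeR adjusted p = 0.399). All spleen libraries lay below all marrow libraries, and Mpo passed with DESeq2 and without spleen replicate 2. Elastase (Elane) and proteinase 3 (Prtn3), serine proteases of the same granules, followed at −3.88 ± 0.60 and −3.17 ± 0.49, with 0.291, 0.279 and 0.741 CPM of Elane in spleen against 6.9, 8.83 and 3.33 CPM in bone marrow.

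Neutrophil genes were the group with the most members in this pattern. Of 21 tested members of a list of mature neutrophil markers, 20 were lower in every spleen library than in every bone marrow library (9.17% of all genes were), 14 of them with all 3 spleen libraries more than 1 log2 unit beyond. Trem1 was the member whose groups overlapped. The median log2 fold change of the list was −3.06, against 0.04 over all genes tested, and −4.36 without spleen replicate 3, and 20 members had an unadjusted p under 0.05 with edgeR while none passed its adjustment in the 6-library model. In the 12-library model edgeR called 1 member, Mmp9, and DESeq2 called 13, among them Mmp9, Ngp, Ltf and Itgam. Ngp, a neutrophil granule protein, stood at 115, 177 and 91.3 CPM in bone marrow and 7.12, 7.88 and 46.2 CPM in spleen. Ltf, which encodes lactoferrin, stood at 76.7, 130.2 and 59.3 CPM and 2.17, 5.42 and 25.1 CPM, and S100a9, a calprotectin subunit, at 69, 128 and 61.2 CPM and 2.33, 6.05 and 36.6 CPM. In these 3 genes spleen replicates 1 and 2 were the lowest and replicate 3 was several-fold above them, though still under the marrow. Mmp9, a secreted protease of neutrophils, did not share that order, at 1.13, 0.438 and 0.834 CPM in spleen against 6.3, 17.9 and 6.12 CPM in bone marrow (−3.66 ± 0.62).

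Summed over the list, neutrophil markers made up 29.6, 39.9 and 195 CPM in the spleen libraries and 459, 761 and 379 CPM in the bone marrow libraries under doxycycline. In the controls the sums were 204, 72 and 117 CPM and 1503, 1191 and 1029 CPM. Treated marrow lay below untreated marrow in all libraries, and treated spleen replicate 3 was inside the range of untreated spleen. In bulk RNA of sorted cells, fewer cells of a type and less of its RNA per cell cannot be told apart, and Stfa3 was the member at 0 in all 6 libraries.

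Of 16 tested primary granule and immature myeloid genes, 9 were lower without overlap and 5 had all 3 spleen libraries beyond, with a list median of −1.75, which was −2.89 without spleen replicate 3. The list was mixed, however. Its sum was 1248, 104 and 1202 CPM in spleen replicates 1, 2 and 3 and 407, 500 and 431 CPM in bone marrow. Without spleen replicate 2 edgeR called 3 members higher (Cst7, Srgn and Serpinb1a) and 3 lower (Mpo, Elane and Prtn3). Serpinb1a and Srgn went the other way in spleen replicates 1 and 3 and are described further on. Outside these lists, genes of low level with small p included Lrg1, a glycoprotein released by neutrophils (1.96, 3.27 and 1.74 CPM in bone marrow against 0.194, 0.0796 and 0.278 CPM in spleen, −3.65 ± 0.58). The tetraspanin Cd63 stood at 2.47, 4.65 and 2.09 CPM and 0.259, 0.239 and 0.51 CPM (−3.21 ± 0.54), and Nhsl2 at 1.58, 2.83 and 1.55 CPM and 0.227, 0.358 and 0.232 CPM (−2.86 ± 0.49). Of the 112 genes with all 3 spleen libraries below, 19 belonged to the neutrophil or primary granule list. Whether the summed neutrophil signal accounts for other members of the 112 was not tested.

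Other marker lists showed what else the sorted cells could hold. Monocyte and macrophage markers summed to 102, 179 and 82.2 CPM in bone marrow and 54.1, 116 and 75.7 CPM in spleen, with 3 of 22 members lower without overlap and Clec4f at 0. Ccr2, a chemokine receptor of monocytes, stood at 11.5, 14 and 8.99 CPM in bone marrow and 5.92, 7.25 and 4.08 CPM in spleen (−1.01 ± 0.31). Of 12 tested dendritic and MHC class II genes none was separated, but 7 were low in spleen replicate 1 alone, among them Cd74, the invariant chain, at 4.86, 31.4 and 22 CPM against 18.7, 44.6 and 16.3 CPM. Of 4 tested stroma and endothelial markers 2 were lower in spleen, and Lum, Ccl19 and Ccl21a were at 0 in all 6 libraries. T and NK cell markers, of which 7 were tested and none was separated, summed to 401, 55.3 and 208 CPM in spleen replicates 1, 2 and 3 and 90.5, 100.4 and 104 CPM in bone marrow. The median of the tested members was only 1.80, 1.35 and 0.46 log2 CPM in spleen and −0.57, 2.00 and 0.06 in bone marrow, so few members made up these sums. Cd3e had 2 expected counts in spleen replicate 1. The part of these cell types in the results below was not tested.

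B lineage genes split in both directions. Among 21 tested, 8 were lower in spleen without overlap, and these included genes of B cell precursors: Rag1, which cuts antigen receptor genes, stood at 0.724, 1.09 and 1.16 CPM in bone marrow and 0, 0 and 0.0927 CPM in spleen. Pax5, the factor that commits cells to the B lineage, stood at 3.62, 2.87 and 1.86 CPM and 0.0971, 0.398 and 1.07 CPM. The other 2 non-overlapping genes were light chain genes higher in spleen, Igkc at 11, 11.2 and 36.8 CPM against 3.28, 9.41 and 4.76 CPM and Iglc2 at 0.647, 0.757 and 3.71 CPM against 0.17, 0.0727 and 0.194 CPM. Spleen replicate 3 was the highest of the 3 for both. The summed list held 120.2, 85.4 and 229 CPM in spleen and 82.9, 112 and 76.4 CPM in bone marrow.

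Transcription factors of early blood cells were lower in spleen where all spleen libraries were separated from all marrow libraries. Of 34 tested, 7 were lower without overlap and 0 were higher, with a median of 0.06 over the list, and of −0.09 without spleen replicate 1. That side depended on spleen replicate 2. Without it edgeR called 6 of the 34 higher (1.96% of all genes) and 2 lower (1.04%). The 6 were Runx3, Fli1, Erg, Meis1, Hhex and Ikzf2. Pou4f1, a POU homeodomain factor, stood at 34.1, 44.5 and 36 CPM in bone marrow and 16.9, 17.4 and 19.7 CPM in spleen (−1.10 ± 0.18; edgeR adjusted p = 0.399), and the 3 spleen values nearly coincided. Hlf, a factor of stem and progenitor cells, stood at 53, 48.7 and 54.1 CPM and 20.8, 16.2 and 36 CPM (−1.11 ± 0.30). Cbfa2t3, a corepressor of the family that includes ETO, stood at 165, 171 and 161 CPM and 123, 85.5 and 92.3 CPM (−0.74 ± 0.19). Gata2, needed by stem cells and mast cells, stood at 576, 833 and 605 CPM in bone marrow and 420.5, 119 and 296 CPM in spleen (−1.28 ± 0.44), with replicate 2 far below the other spleen libraries. Gata1, the erythroid and megakaryocytic factor, stood at 416, 433 and 489 CPM and 365, 371 and 302 CPM. For both GATA genes treated marrow was above every control, whose levels were 229 to 290.1 CPM for Gata2 and 258 to 371 CPM for Gata1.

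Receptors gave a similar count, 8 of 29 tested growth factor receptor and signalling genes lower without overlap and 0 higher. Without spleen replicate 2 edgeR called 2 of the 29 higher (1.96% of all genes) and 1 lower (1.04%). Kit, the stem cell factor receptor, stood at 266, 236 and 265 CPM in bone marrow and 104, 189 and 147 CPM in spleen (−0.82 ± 0.24). Il4ra, the interleukin 4 receptor chain, stood at 80.8, 122 and 94.1 CPM and 18.6, 52.8 and 48.2 CPM (−1.33 ± 0.39), and the controls of both tissues held only 11.7 to 15.2 CPM. Il4ra was therefore above the controls in every treated library, least in spleen replicate 1. Csf2ra and Csf3r, receptors for myeloid growth factors, were low throughout, at 2.64, 5.63 and 2.09 CPM and 1.96, 6.43 and 1.43 CPM in bone marrow, with log2 fold changes of −2.33 ± 0.68 and −2.47 ± 0.75. Csf3r also stands in the neutrophil list. Adhesion and homing genes were lower without overlap for 8 of 31 tested and higher for 0. Itgam, an integrin chain of myeloid cells, stood at 8.0, 15.5 and 5.11 CPM in bone marrow and 0.162, 1.43 and 1.39 CPM in spleen (−3.29 ± 0.82), and Cxcr4, the receptor that holds cells in marrow, at 1.28, 4.14 and 1.32 CPM and 0, 0.398 and 0.556 CPM (−2.86 ± 1.10). Itgb7, an integrin chain of homing lymphocytes and mast cells, was abundant, at 199, 258 and 209 CPM and 186, 103 and 83 CPM. Itgam and Cxcr2 of this list are neutrophil markers as well.

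Lists of haem and iron, p53 target and stress response genes held a few separated members, all lower in spleen. Over all genes 9.17% were lower without overlap, and the haem and iron and stress response lists lay under that share. Fth1, the ferritin heavy chain, stood at 3355, 3878 and 4010.1 CPM in bone marrow and 2514, 2791 and 2286 CPM in spleen (−0.58 ± 0.16), the single separated gene of 24 in the haem and iron list. Of 27 tested p53 targets 4 were lower without overlap. Trp53inp1 stood at 93.8, 130.5 and 88.8 CPM and 32.2, 40.7 and 78.5 CPM (−1.07 ± 0.35), and Mdm2, the ubiquitin ligase of p53, at 134, 172 and 129 CPM and 89.6, 106 and 117 CPM (−0.49 ± 0.19). Atf5, a factor of the integrated stress response, stood at 115, 160.05 and 128 CPM and 25.6, 99 and 36.7 CPM (−1.34 ± 0.49), with replicates 1 and 3 low and replicate 2 just under the marrow. It was 1 of 2 separated members among 31 of that list.

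**Figure D2:**
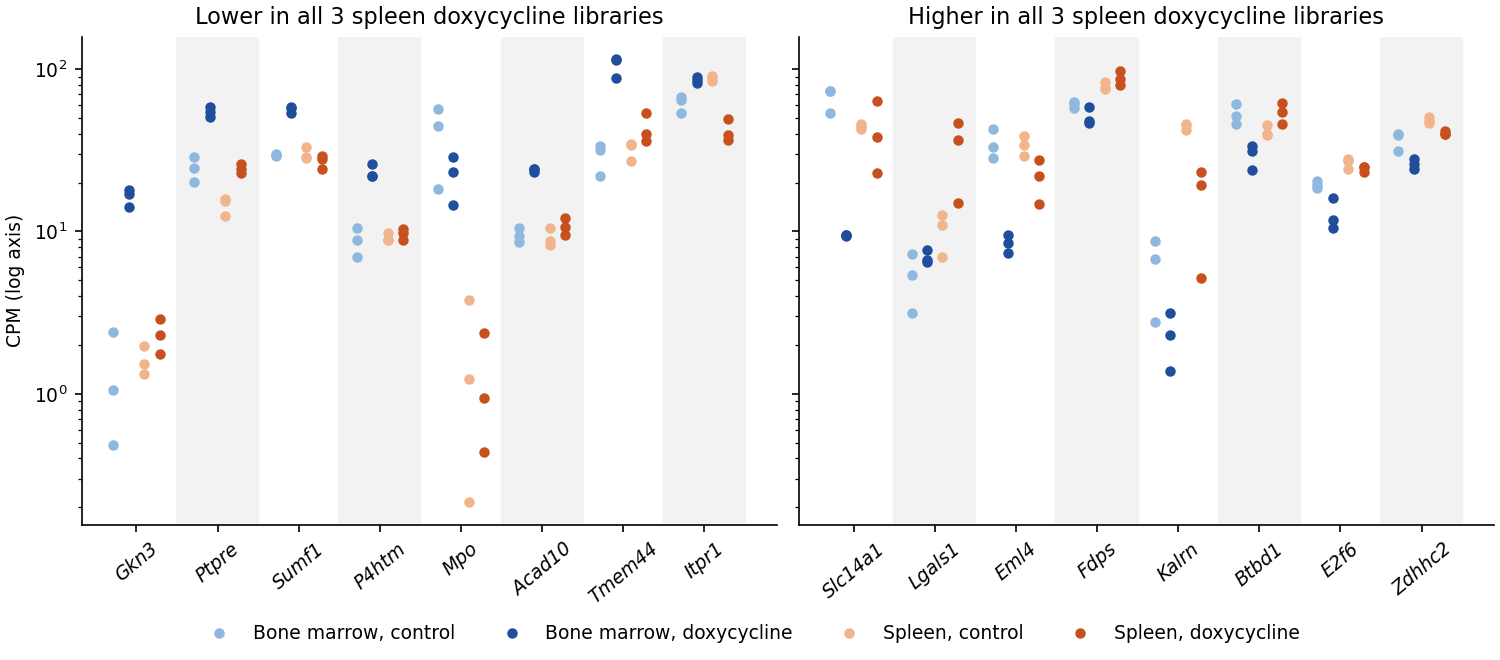
CPM on a log axis of the 8 lower (left) and 8 higher (right) genes of smallest p with a mean of at least 3 log2 CPM whose 3 spleen libraries lay on 1 side of the 3 bone marrow libraries under doxycycline, with the controls of both tissues beside them; each point is a library. Gkn3, Ptpre and Sumf1 show tight treated groups, while Mpo spreads from 0.438 to 2.36 CPM in treated spleen and Kalrn from 5.19 to 23.1 CPM.

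Fewer genes were higher in all 3 spleen libraries. Slc14a1, a urea transporter of red cells, stood at 9.32, 9.52 and 9.57 CPM in bone marrow and 63.6, 37.9 and 22.8 CPM in spleen (2.12 ± 0.37; edgeR adjusted p = 0.399). Its 6 controls held 42.7 to 73.9 CPM, so every treated library except spleen replicate 1 lay below them, and the marrow was the lowest. Lgals1, the glycan-binding galectin-1, stood at 6.64, 7.74 and 6.51 CPM and 14.9, 46.5 and 36.6 CPM (2.21 ± 0.41), lowest in spleen replicate 1. Eml4, which binds microtubules, stood at 9.45, 8.47 and 7.4 CPM and 27.7, 14.7 and 22 CPM (1.33 ± 0.28). The palmitoyltransferase Zdhhc2 was the most even of those named, at 26, 24.2 and 28 CPM and 39.9, 41.4 and 39.8 CPM (0.62 ± 0.15), and the repressor E2f6 was close to it, at 11.8, 16.1 and 10.5 CPM and 23.1, 24.9 and 25 CPM (0.91 ± 0.21). Both groups of each gene were separate, and none passed edgeR's adjustment in the 6-library model. Slc14a1, Eml4 and E2f6 passed in the 12-library model, Slc14a1, Lgals1 and Eml4 with DESeq2, and Slc14a1 and Eml4 without spleen replicate 2.

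Kalrn, an exchange factor for small GTPases, stood at 2.3, 1.38 and 3.14 CPM in bone marrow and 19.5, 23.1 and 5.19 CPM in spleen (2.80 ± 0.61), with replicate 3 nearest to the marrow. Btbd1 stood at 33.6, 23.8 and 31.3 CPM and 54.8, 46.2 and 62 CPM (0.87 ± 0.20). Among genes of low level, Slc12a2, a sodium, potassium and chloride cotransporter, stood at 2.13, 1.78 and 1.59 CPM and 5.73, 5.81 and 4.73 CPM (1.55 ± 0.31), and Rgs10, a regulator of G protein signalling, at 1.23, 2.69 and 2.36 CPM and 11.3, 7.88 and 4.77 CPM (1.91 ± 0.46). Tppp, a tubulin polymerisation promoter, was almost without reads in bone marrow (0.0426, 0.145 and 0.155 CPM) and stood at 4.5, 0.597 and 7.09 CPM in spleen (5.06 ± 1.03). Hey1, a repressor downstream of Notch, was also low, at 0.128, 0.218 and 0.0775 CPM and 1.17, 1.27 and 0.556 CPM (2.77 ± 0.61). Slc12a2, Rgs10 and Tppp passed in the 12-library model and with DESeq2, Kalrn and Hey1 with DESeq2, and Btbd1 in none of the models run.

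Among the pathway lists, cholesterol synthesis had the largest share of separated members on the higher side. Of 24 tested, 9 were higher without overlap and 0 lower, with a median of 0.35, and without spleen replicate 2 the count was 18, where 22% of all genes were separated on the higher side. Fdps, which makes farnesyl diphosphate, stood at 46.6, 47.6 and 58.3 CPM in bone marrow and 97.2, 79.9 and 86.7 CPM in spleen (0.78 ± 0.17). Idi1, an isomerase upstream of it, stood at 26.3, 19.8 and 29.3 CPM and 39.8, 34.2 and 58.2 CPM (0.79 ± 0.25), and Cyp51, a lanosterol demethylase, at 17.6, 15.9 and 19.1 CPM and 30.5, 19.7 and 36.3 CPM (0.70 ± 0.25). Spleen replicate 2 lay just above the marrow for Cyp51 and replicates 1 and 3 further up.

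Separated members of the proliferation and respiration lists all lay on the higher side, and none passed edgeR's adjustment. Of 33 replication genes 7 were higher without overlap and 0 lower (median 0.32), and of 32 mitosis genes 4 were higher and 0 lower (median 0.23). In spleen replicate 1, however, 18 of the 32 mitosis genes were lower than in every marrow library, and without replicate 2 the medians were 0.16 for replication and −0.04 for mitosis. Cenph, a kinetochore subunit, stood at 41.3, 32.9 and 43.9 CPM in bone marrow and 62.3, 58.5 and 69.8 CPM in spleen (0.68 ± 0.17). Of 42 nuclear genes of the respiratory chain 7 were higher and 0 lower, and cytochrome c (Cycs) stood at 78.8, 90.8 and 88.8 CPM and 133, 107 and 158 CPM (0.61 ± 0.19). Of 31 genes of ribosome biogenesis 4 were higher, among them the nucleolar protein Nop56 at 283, 240.4 and 273 CPM and 323, 374 and 394 CPM (0.44 ± 0.16). Snhg12, a host of small nucleolar RNAs, stood at 28.7, 32.3 and 27.7 CPM and 42.4, 49.9 and 38.2 CPM (0.54 ± 0.17).

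Replication-dependent histones, whose messages normally lack a poly(A) tail, were detected at low levels after the oligo-dT selection. Of 20 tested, 5 were higher in spleen without overlap and 0 lower, and 11 and 8 were higher without spleen replicate 2 and without replicate 3. The list median was 1.16 over those 20, but −0.12 over the members with a mean of at least 50 counts, and it was 0.65 without spleen replicate 1. Hist1h4d stood at 0.809, 0.618 and 0.736 CPM in bone marrow and 2.95, 1.79 and 1.9 CPM in spleen (1.60 ± 0.40), and Hist1h2ae at 0.937, 1.24 and 0.969 CPM and 3.4, 1.83 and 3.1 CPM (1.39 ± 0.40). Spleen replicate 1 was the highest for both. Histone genes are near-identical copies, so the division of reads among them is uncertain.

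Differences carried by 1 spleen library were more numerous than shared ones. For 1101 of 13325 genes (8.26%), 1 spleen library lay more than 1 log2 unit beyond the bone marrow range while the other 2 stayed within 0.5 log2 units of it. Replicate 1 carried 653 of these, 214 higher (1.61%) and 439 lower (3.29%). Replicate 2 carried 285, 69 higher (0.518%) and 216 lower (1.62%), and replicate 3 carried 163, 60 higher (0.45%) and 103 lower (0.773%). In the controls, 1 spleen library carried 148 of 13125 genes, and with the tissues exchanged 1 bone marrow library carried 153 under doxycycline. These counts are descriptions with no test. Without the 1 log2 margin a single library lay outside the marrow for far more genes: 41.5% of all genes tested were higher and 41.1% lower in replicate 1 than in every marrow library, 36.5% and 37.4% in replicate 2 and 39.3% and 38% in replicate 3. Counts below of members above or below every marrow library in 1 spleen library are to be read against those shares.

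The 3 sets related differently to the untreated spleen. For this count the spleen control range was widened by 0.5 log2 units on each side. Of the 214 genes that replicate 1 carried upward, replicate 1 lay inside the widened range for 62.1%, and of the 439 downward genes for 46.9%. Replicate 2 lay inside that range for 7.25% of its own higher and 11.1% of its own lower genes, and replicate 3 for 20% and 22.3%. Among the lower genes of replicate 2, by contrast, replicate 1 lay inside the widened range for 76.4%. The same share over all genes tested was not counted.

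Replicate 1 was set apart by low red cell genes. Alas2, the erythroid enzyme that starts haem synthesis, stood at 627, 805 and 721 CPM in treated bone marrow and at 56.9, 1054 and 462 CPM in spleen replicates 1, 2 and 3. The controls of both tissues held 12 to 53.2 CPM of it. Hba-a2, an alpha globin gene, stood at 16609, 23029.5 and 21137 CPM and 1969, 28570.03 and 14901 CPM, and reads of the near-identical Hba-a1 cannot be divided from it with certainty. Replicate 1 was thus far under all the other treated libraries in both. Of 32 erythroid genes, 30 were lower in replicate 1 than in every marrow library (41.1% of all genes were), 29 were higher in replicate 2 than in every marrow library (36.5%) and 22 were lower in replicate 3 (38%). The list as a whole had a median of −0.02, of −0.87 without replicate 2 and of 0.25 without replicate 1, and 0 separated members, so it showed no shared tissue difference. The median log2 CPM of the list was 6.79, 9.24 and 8.01 in spleen replicates 1, 2 and 3 and 8.32, 8.38 and 8.32 in bone marrow.

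The promoters of both genes are shown because both belong to the genes low in replicate 1 alone. Each run is the 250 bases before the transcription start in RefSeq (GRCm38.p6), 5′ to 3′ on the strand of the gene. AGATAA, a form of the motif bound by GATA factors, is in capitals where either strand holds it. Alas2 is at chrX:150547167-150547416 on the plus strand and Hba-a2 at chr11:32296242-32296491 on the plus strand.
Alas2: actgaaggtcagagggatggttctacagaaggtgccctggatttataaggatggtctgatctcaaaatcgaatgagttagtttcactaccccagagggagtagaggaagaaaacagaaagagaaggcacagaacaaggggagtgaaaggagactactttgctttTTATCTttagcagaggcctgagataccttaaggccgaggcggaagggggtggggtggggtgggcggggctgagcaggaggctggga
Hba-a2: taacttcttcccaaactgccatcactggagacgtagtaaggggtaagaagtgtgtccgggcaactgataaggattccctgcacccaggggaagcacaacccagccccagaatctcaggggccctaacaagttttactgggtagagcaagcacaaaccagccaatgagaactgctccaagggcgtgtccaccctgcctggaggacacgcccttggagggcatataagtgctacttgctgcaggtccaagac
The capitals of Alas2 mark TTATCT, the reverse complement of AGATAA, 86 bases before the start. The window of Hba-a2 holds no match to AGATAA, but it holds tgataa, which was not searched for.

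Other genes low in replicate 1 alone were Xpo7, a nuclear exportin, at 70.5, 670.3 and 362 CPM in spleen against 516, 547 and 495 CPM in bone marrow, and Slfn14, a ribonuclease of red cell precursors, at 9.42, 109.7 and 50.5 CPM against 63.2, 80.2 and 71.4 CPM. Tcp11l2 stood at 15.5, 86.5 and 86.3 CPM against 102, 143 and 118 CPM. In all 3 genes replicate 1 was near the controls, which held 90.5 to 104 CPM of Xpo7. Genes high in replicate 1 alone included Amigo2, an adhesion protein, at 91.9, 5.65 and 7.51 CPM against 3.66, 10.4 and 3.64 CPM, and the adaptor Dok3 at 37.5, 5.85 and 12.1 CPM against 8.47, 8.9 and 7.36 CPM. The retinoic acid receptor Rara stood at 28.5, 5.42 and 7.23 CPM against 8.13, 7.78 and 6.66 CPM. Junb, an AP-1 subunit, stood at 286, 53.2 and 107 CPM and Ier5 at 145, 49.7 and 28.5 CPM, against 69.5, 88.1 and 82.7 and 32.5, 32.8 and 36.3 CPM in bone marrow. Replicate 1 alone carried 4 of 26 immediate early genes upward (Fosl2, Junb, Jund and Ier5). Of 23 tested MHC class I genes, which present peptides at the cell surface, 18 were higher in replicate 1 (41.5% of all genes) and 18 lower in replicate 2 (37.4%) than in every marrow library. The immunoproteasome subunit Psmb8 stood at 149, 15.2 and 17.7 CPM against 26.3, 24.6 and 26 CPM, and H2-T23, a class I gene, at 408, 64.3 and 100 CPM against 95.4, 110.4 and 92.2 CPM.

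Replicate 2 was set apart by high division and erythroid genes and by low levels of others. Ccne1, cyclin E1 of S phase entry, stood at 33.3, 124 and 42.5 CPM in spleen replicates 1, 2 and 3 against 40.2, 35.6 and 40.8 CPM in bone marrow, and Cdc6, Rrm2 and Ccne2 of the replication list were carried upward in the same way. All 33 replication genes and all 32 mitosis genes were higher in replicate 2 than in every marrow library, as were 36.5% of all genes. Mki67, a marker of dividing cells, stood at 883, 2562 and 1202 CPM against 1436, 1284 and 1283 CPM. Hemgn, a nuclear protein of red cell precursors, stood at 115, 662 and 201 CPM against 173, 125 and 187 CPM, and the lipid transporter Abca3 at 6.18, 68.3 and 11.5 CPM against 11.3, 5.89 and 10.6 CPM. Rgs12 stood at 16.2, 103 and 24.7 CPM against 25.1, 15.6 and 21.7 CPM and Tmem184a at 44.8, 92.7 and 30.03 CPM against 27.8, 36.9 and 28.4 CPM. For Ccne1, Hemgn, Abca3, Rgs12 and Tmem184a replicates 1 and 3 stayed within 0.5 log2 units of the marrow range, and for Mki67 both lay below every marrow library.

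Mast cell genes were low in replicate 2. Hdc, which makes histamine, stood at 482, 52.1 and 558 CPM in spleen against 364, 256 and 429 CPM in bone marrow, and Il1rl1, the interleukin 33 receptor, at 1460.2, 143 and 1637 CPM against 984, 1023 and 875 CPM. Ms4a2, a chain of the IgE receptor, stood at 519.6, 99.7 and 1156 CPM against 499, 495 and 466 CPM. Summed over the mast cell, basophil and eosinophil list, replicates 1, 2 and 3 held 3522, 634 and 4339.8 CPM and the marrow 2871, 3053 and 2817 CPM, with Mcpt4 and Tpsb2 at 0 in all 6. Of 17 tested, 16 were lower in replicate 2 than in every marrow library, against 37.4% of all genes. The mediator subunit Med12l stood at 38.9, 4.1 and 39.6 CPM against 35.3, 34.7 and 24.1 CPM, the adenosine receptor Adora3 at 87.2, 9.08 and 72.7 CPM against 51, 62.5 and 58 CPM and the anion transporter Slc26a9 at 17.6, 1.23 and 10.5 CPM against 15.3, 31.4 and 11.1 CPM. Zfhx3 stood at 15, 2.35 and 15.4 CPM and Rgs7bp at 32.3, 1.95 and 33.9 CPM, against 19.5, 15.9 and 13.9 and 23.8, 13.3 and 21.4 CPM. For Hdc and the last 5 genes replicates 1 and 3 stayed within 0.5 log2 units of the marrow range, whereas for Il1rl1 and Ms4a2 both lay above every marrow library.

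Replicate 3 was set apart by mitochondrial, interferon and B cell genes. Messages of the mitochondrial genome took 5.2% of its counts against 1.99 to 3.53% in the other 11 libraries of 7 days. It carried 8 of 15 mitochondrially encoded genes upward, among them the complex I subunit mt-Nd4 at 1474, 1731 and 4614 CPM against 1745, 1365 and 1789 CPM and mt-Nd2 at 913, 1098 and 2779.7 CPM against 1093, 871 and 1129.7 CPM. The complex IV subunit mt-Co3 stood at 1866, 1669.5 and 4008 CPM against 1574, 1461 and 1710.4 CPM, and mt-Atp8 at 165, 157 and 406 CPM against 154, 144 and 168 CPM. All 15 members were higher in replicate 3 than in every marrow library (39.3% of all genes were). Slc6a15, an amino acid transporter, stood at 7.87, 8.76 and 29.6 CPM against 8.43, 7.23 and 8.02 CPM. Immunoglobulin genes were also high in it, Ighm at 22.2, 27.7 and 83.4 CPM against 12, 23.2 and 10.5 CPM and Jchain, which joins immunoglobulin subunits, at 2.69, 5.3 and 26.4 CPM against 1.57, 4.07 and 2.29 CPM, as was the B cell surface gene Ms4a1 at 0.13, 0.398 and 3.66 CPM against 0.937, 0.69 and 0.194 CPM. Xist, the RNA that silences 1 X chromosome of female cells, stood at 751, 1111 and 11.6 CPM in spleen, 422, 712 and 159 CPM in bone marrow and 788 to 1770.4 CPM in the controls. Replicate 3 had the lowest of all 12, while Ddx3y of the Y chromosome was at most 0.618 CPM under doxycycline. The part of mitochondrial, immunoglobulin and Xist reads in the other differences of replicate 3 was not tested.

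Interferon response genes were lowest in replicate 3 among the spleen libraries for 34 of 50 tested. Type I interferons act through STAT and IRF factors on a response element in the promoters of antiviral genes. Of the 50 genes, 11 were carried downward by replicate 3 alone and 0 by the other 2 libraries. Below every marrow library lay 43 in replicate 3 (38% of all genes), 33 in replicate 1 (41.1%) and 14 in replicate 2 (37.4%). The median log2 CPM of the list was 4.82, 5.37 and 3.30 in spleen replicates 1, 2 and 3 and 5.04, 5.54 and 5.19 in bone marrow. The promoters of 4 of the 11 genes are shown as examples, again as 250 bases before the start in RefSeq (GRCm38.p6), with GAAANNGAAA, the core of the interferon response element, in capitals where either strand holds it. Trim30a (chr7:104465194-104465443), Bst2 (chr8:71537473-71537722) and Irgm1 (chr11:48871421-48871670) are on the minus strand and Xaf1 (chr11:72301379-72301628) is on the plus strand.
Trim30a: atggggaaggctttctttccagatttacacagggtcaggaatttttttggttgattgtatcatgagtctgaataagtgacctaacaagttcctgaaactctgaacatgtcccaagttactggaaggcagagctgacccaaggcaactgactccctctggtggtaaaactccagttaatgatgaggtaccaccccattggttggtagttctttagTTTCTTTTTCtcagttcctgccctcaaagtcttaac
Bst2: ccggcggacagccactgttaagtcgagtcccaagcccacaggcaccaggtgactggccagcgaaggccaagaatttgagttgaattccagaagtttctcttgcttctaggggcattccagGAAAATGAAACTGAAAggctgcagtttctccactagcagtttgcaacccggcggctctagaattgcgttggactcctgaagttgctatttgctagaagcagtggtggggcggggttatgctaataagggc
Irgm1: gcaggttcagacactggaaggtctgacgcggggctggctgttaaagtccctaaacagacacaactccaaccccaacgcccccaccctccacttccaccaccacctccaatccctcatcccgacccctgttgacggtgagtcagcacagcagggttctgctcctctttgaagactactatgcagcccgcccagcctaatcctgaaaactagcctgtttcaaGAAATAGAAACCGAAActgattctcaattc
Xaf1: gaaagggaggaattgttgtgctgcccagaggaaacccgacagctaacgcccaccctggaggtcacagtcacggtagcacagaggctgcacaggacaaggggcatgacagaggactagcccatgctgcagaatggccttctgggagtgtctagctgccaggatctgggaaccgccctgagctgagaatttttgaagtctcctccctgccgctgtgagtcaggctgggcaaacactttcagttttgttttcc
Bst2 and Irgm1 hold 2 overlapping matches each on the strand of the gene, Trim30a holds 1 on the other strand, and the window of Xaf1 holds none.

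Xaf1, an interferon-induced proapoptotic factor, stood at 25.4, 31.2 and 23.5 CPM in bone marrow and 27.8, 29.2 and 2.22 CPM in spleen replicates 1, 2 and 3. Dhx58, a regulator of RNA sensing, stood at 34.7, 52.3 and 38.3 CPM and 34.7, 62.8 and 3.85 CPM. Trim30a, a ubiquitin ligase family member, stood at 9.03, 15 and 7.86 CPM and 8.77, 12.8 and 0.834 CPM. Replicates 1 and 2 were at or near the marrow level in all 3 and replicate 3 was far below. Bst2, the tetherin that holds budding virus, stood at 20.9, 37.1 and 20.7 CPM and 38.5, 31.9 and 5.79 CPM, Irgm1, an immunity-related GTPase, at 100.5, 113 and 100.1 CPM and 79.4, 119 and 31.3 CPM, and Parp12 at 31.2, 33.9 and 36.5 CPM and 23.2, 41.7 and 3.8 CPM. Outside the list the interferon-induced GTPase gene Tgtp2 stood at 16, 25.5 and 18.4 CPM and 27, 18.8 and 2.13 CPM, and Prkar2a, a regulatory subunit of protein kinase A, at 57.7, 40.2 and 62.5 CPM and 39.2, 58 and 3.94 CPM.

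Some interferon genes were lower in every spleen library than in every marrow library, in a share near that of all genes. Oas2, which makes oligoadenylate on sensing double-stranded RNA, stood at 26, 55.1 and 19.2 CPM in bone marrow and 4.82, 12.7 and 1.11 CPM in spleen (−2.44 ± 0.83), and Oasl2 at 84.5, 126 and 90.1 CPM and 5.5, 47.3 and 9.73 CPM (−2.28 ± 0.77). For Oasl2 replicate 1 was the lowest, and replicate 2 was the highest for both. In all, 5 of the 50 members were lower (9.17% of all genes were) and 2 higher (6.57%) without overlap. The list median was −0.44, which was −0.06 without replicate 3 and −0.89 without replicate 2. Without replicate 2 the lower count was 32 (22.6% of all genes), and without replicate 1 it was 11 (16.6%).

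Promoter motifs were counted on both strands of the 300-base promoter entries, which hold the 250-base window shown and run on past the start. The 4 motifs were chosen after the expression values were seen. They were GAAANNGAAA of the interferon response, AGATAA, a form bound by GATA factors, TGTGGT of RUNX factors and TTNNGNAA of CEBP factors. Overlaps between motifs were allowed. Of the 11 interferon genes carried by replicate 3, 10 had a promoter entry, and 5, 1, 0 and 5 of them held the motifs in that order. Of 29 other tested interferon genes with an entry, 16, 5, 6 and 16 held them, so the response element was in 50% of the first set and 55.2% of the second. Over all 27025 gene symbols of the table the shares were 3.99, 12.7, 18.9 and 44.1%. Of the 5 erythroid genes low in replicate 1, 0, 1, 0 and 3 held the motifs. Of 26 neutrophil and primary granule genes lower in spleen with an entry, 0, 3, 7 and 18 held them. These matches describe letters in a window and say nothing of binding.

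**Figure D3:**
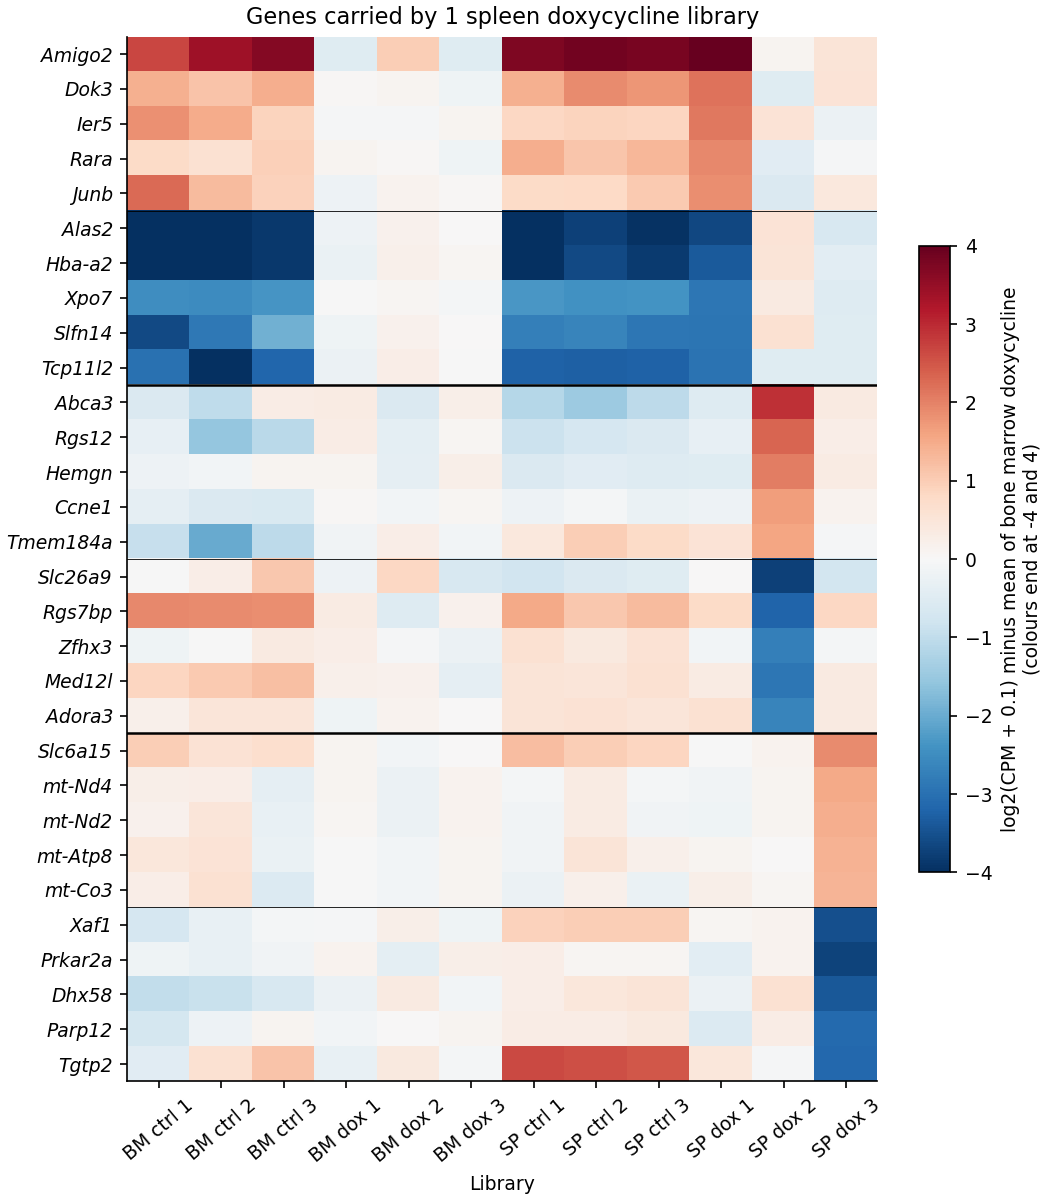
Colour gives log2(CPM + 0.1) minus the mean of the 3 bone marrow doxycycline libraries, for the 5 higher and 5 lower genes carried furthest by each spleen doxycycline library (rows) in the 12 libraries of 7 days (columns). In each block 1 spleen column is strongly coloured and the other 2 are pale, for example Alas2 in replicate 1, Abca3 in replicate 2 and Xaf1 in replicate 3.

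A further 327 genes were carried by 2 spleen libraries, and for 201 of these, 101 higher (0.758%) and 100 lower (0.75%), replicate 2 was the library at the marrow level. Nos3, the endothelial nitric oxide synthase, stood at 0.17, 0.40 and 0.232 CPM in bone marrow and 24.5, 0.438 and 1.76 CPM in spleen. Dusp2, a phosphatase of MAP kinases, stood at 3.24, 1.64 and 3.49 CPM and 58.9, 1.23 and 7.69 CPM, and Pfkp, a phosphofructokinase of glycolysis, at 92.1, 102 and 88.2 CPM and 299.6, 75.7 and 256 CPM. Sphk1, a sphingosine kinase, was an example in the lower direction, at 138, 196 and 123 CPM and 3.66, 237 and 40.2 CPM, with 1.01 to 2.36 CPM in the controls. Replicates 1 and 3 therefore stood on the control side of the marrow for Sphk1 and replicate 2 did not.

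In other genes replicate 2 lay on the far side of the marrow. Tek, the angiopoietin receptor of endothelium and early blood cells, stood at 7.37, 7.7 and 6.93 CPM in bone marrow and 107, 1.15 and 75.1 CPM in spleen (3.05 ± 1.23; edgeR adjusted p = 0.606, and 0.00801 without replicate 2). The controls held 93.7 to 124 CPM, so replicates 1 and 3 were inside or near the untreated range. Serpinb1a, an inhibitor of granule proteases, stood at 5.24, 6.65 and 5.58 CPM and 270.1, 1.31 and 346 CPM, and Srgn, the granule proteoglycan serglycin, at 297, 329.8 and 344 CPM and 914, 88.6 and 799 CPM. Itga2b, the platelet integrin, stood at 89, 105 and 73.3 CPM and 686, 20.6 and 299 CPM, and Treml1 of platelet granules at 3.19, 2.14 and 2.91 CPM and 76.8, 0.319 and 27.5 CPM. Fos, an AP-1 subunit induced early after a stimulus, stood at 3.19, 2.03 and 1.05 CPM and 67.4, 0.518 and 109 CPM. In these 6 genes replicates 1 and 3 were above and replicate 2 was below all marrow libraries. Lmna, which encodes the A-type lamins of the nuclear envelope, ran the other way, at 87.8, 118 and 103 CPM in treated marrow, 0.174 to 2.8 CPM in the controls and 8.16, 232 and 88.6 CPM in spleen replicates 1, 2 and 3. For Lmna replicate 1 was nearest to the controls, replicate 2 was above the marrow and replicate 3 was level with its lowest library.

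**Figure D4:**
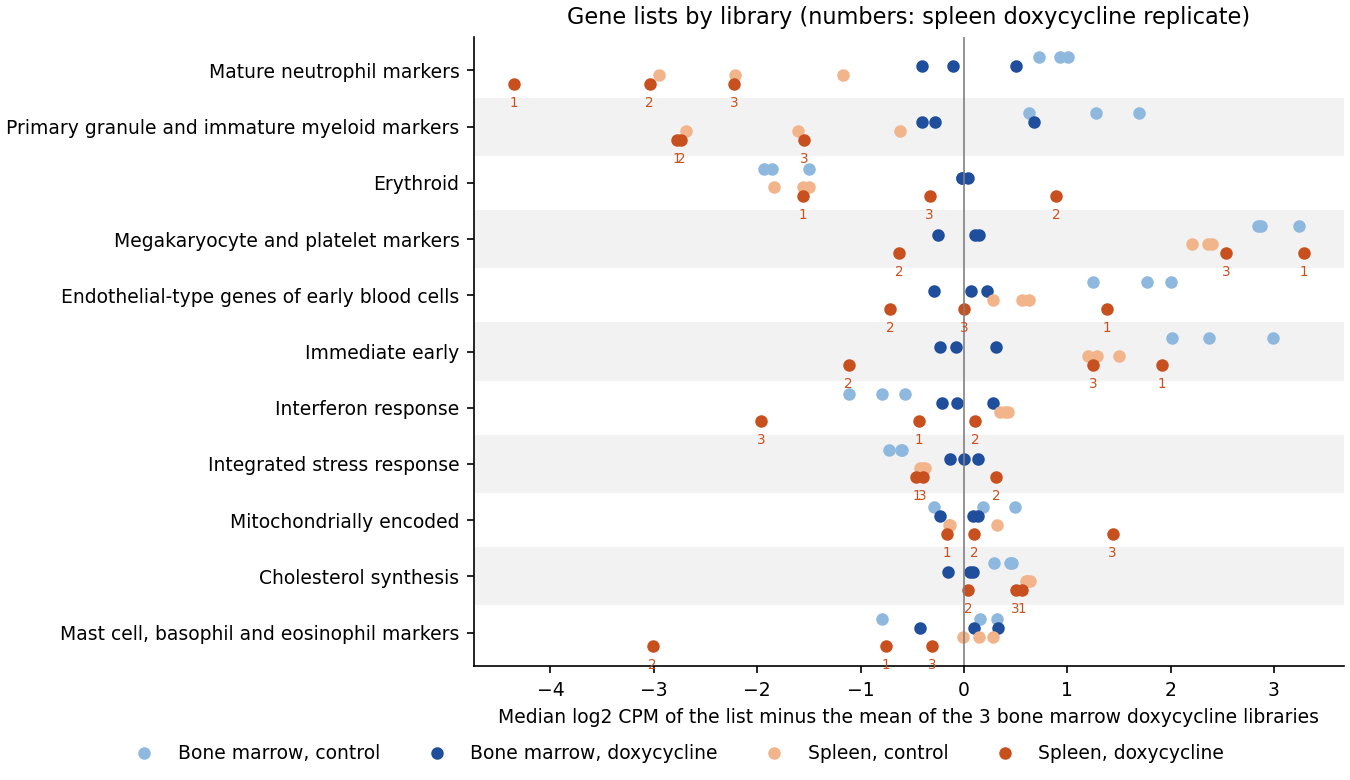
Median log2 CPM of each gene list minus the mean of the 3 bone marrow doxycycline libraries, for 11 lists (rows) in the 12 libraries of 7 days (points, coloured by group; numbers name the spleen doxycycline replicates). The neutrophil row has all 3 numbers on the left, the erythroid row has replicate 1 on the left and replicate 2 on the right, and the interferon row has replicate 3 on the left.

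List medians by library restate that order. Megakaryocyte and platelet genes had medians of 6.08, 2.16 and 5.32 log2 CPM in spleen replicates 1, 2 and 3 and 2.93, 2.53 and 2.90 in bone marrow. Immediate early genes had 4.82, 1.79 and 4.15 and 3.21, 2.67 and 2.82, and genes of the integrated stress response 6.82, 7.60 and 6.88 and 7.15, 7.42 and 7.28. Replicate 2 was the lowest in the first pair of lists and the highest in the third. Mitochondrially encoded genes had 9.84, 10.10 and 11.44 and 10.09, 9.77 and 10.14, with replicate 3 alone well above. Neutrophil markers had −1.58, −0.27 and 0.55 and 2.67, 3.28 and 2.38, with all 3 spleen libraries below the marrow.

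The tissue difference of the control mice is the background for what was left. Between spleen and bone marrow controls, edgeR called 1927 of 13125 genes (14.7%), 958 higher (7.3%) and 969 lower (7.38%) in spleen. Of the 897 genes called lower in control spleen and tested in both comparisons, 190 (21.2%) were lower without overlap under doxycycline as well, 24 were separated the other way and 54 had all 3 treated spleen libraries beyond the marrow. Over all 12667 genes tested in both comparisons 8.64% were lower without overlap under doxycycline. Of the 909 genes called higher in control spleen, 79 (8.69%) were higher without overlap under doxycycline, 67 were separated the other way and 3 had all 3 libraries beyond. The corresponding share over all genes was 6.83%. The median log2 fold change of the 897 genes was −0.85 in the controls and −0.07 under doxycycline, and that of the 909 was 0.64 and 0.14.

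Neutrophil genes made up part of what was left. In the controls 20 of 21 tested neutrophil markers were called lower in spleen, with a median of −3.25, close to the −3.06 under doxycycline. Of the 54 genes called lower in control spleen with all 3 treated spleen libraries more than 1 log2 unit below the marrow, 19 were in the neutrophil or primary granule list. Interferon genes were the opposite case: 34 of 50 were called higher in control spleen, with a median of 0.84, and 2 were higher without overlap under doxycycline, with a median of −0.44. Irf7, a factor that amplifies the interferon response, stood at 103, 115 and 121 CPM in control spleen and 30.2, 33.4 and 43.6 CPM in control marrow, and at 67.5, 130.3 and 17.6 CPM and 92.9, 131 and 94.6 CPM under doxycycline. Treated marrow was near control spleen for this gene, and spleen replicate 3 was below both marrow groups.

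**Figure D5:**
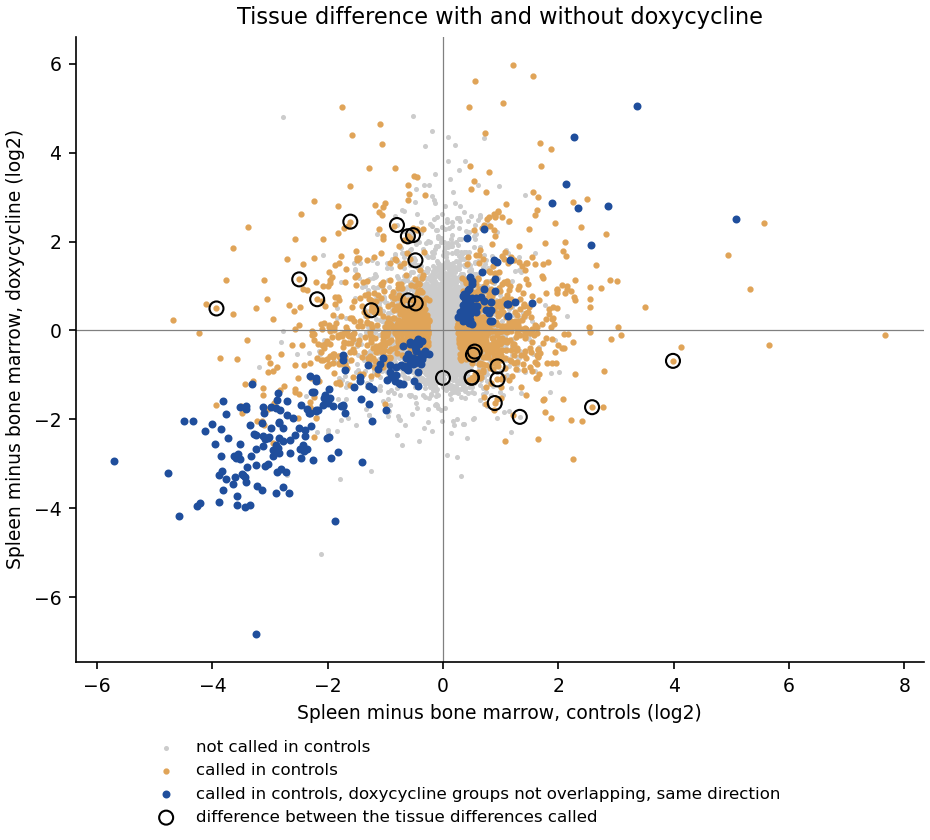
Log2 difference between spleen and bone marrow of each gene in the control mice (x) and under doxycycline (y). Points are genes tested in both, orange where called in controls, blue where the treated groups were also separate in the same direction, and circled where the change of the difference was called (Slc22a13, not tested in controls, is absent); the blue points reach further down on the lower left than up on the upper right.

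Whether the tissue difference itself depended on doxycycline was tested as an interaction over the 12 libraries. This model shares 1 spread per gene among the groups, although the treated spleen libraries were the most spread, so its p-values may be too small. EdgeR called 23 of 14140 genes (0.163%), 11 with a higher (0.0778%) and 12 with a lower (0.0849%) spleen difference under doxycycline. Pou4f1 was 36, 32.6 and 29.2 CPM in control spleen and 13.1, 19.6 and 17.2 CPM in control marrow, against 16.9, 17.4 and 19.7 and 34.1, 44.5 and 36 CPM under doxycycline, so the order of the tissues was reversed (interaction −2.05, edgeR adjusted p = 0.0176). Slc14a1, Sumf1 and Itpr1, described above, were also called, with interactions of 2.72, −1.07 and −1.56. For Itpr1 the tissue order was reversed, and for Sumf1 the tissues were level in the controls. Pgam1, a glycolytic mutase, stood at 230.04, 237 and 229.7 CPM and 171, 143 and 156 CPM in control spleen and marrow and 159.9, 131 and 157 CPM and 193, 207 and 217 CPM under doxycycline (interaction −1.03). Nr4a1, an orphan receptor induced by stimulation, stood at 0.568, 0.30 and 0.393 CPM and 1.32, 1.29 and 1.18 CPM in control spleen and marrow and at 0.777, 1.23 and 1.02 CPM and 0.0852, 0.291 and 0.155 CPM under doxycycline (interaction 4.04). The interaction of Dusp1, another early phosphatase, was 4.42, but its treated groups overlapped. Dusp1 stood at 3.98, 5.01 and 4.77 CPM in control spleen and 114, 63.4 and 30.4 CPM in control marrow. Under doxycycline it stood at 20.7, 34.4 and 25.3 CPM in spleen and 21.9, 14.8 and 19.7 CPM in marrow. The log2 tissue difference was −3.93 in the controls and 0.49 under doxycycline. Leaving out any 1 of the 9 libraries other than treated spleen left 0 to 8 genes called, and without treated spleen replicates 1, 2 and 3 there were 211, 1914 and 125.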

How the data were processed

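Polyadenylated RNA of the sorted cells was sequenced in 16 libraries. The authors deposited 1 table of estimated counts (RSEM expected counts) for 55487 genes and, per library, TPM values; per the submitters' processing notes the tools were Trim Galore, FastQC, MultiQC, STAR and RSEM with the GRCm38 build, without versions, and whether the counting used strand is not stated. Expected counts were rounded. Levels in CPM, fold changes and tests come from the counts, and TPM served only for levels of marker genes.

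Genes were filtered by filterByExpr, scaled by TMM and tested with edgeR 4.0.16 (robust quasi-likelihood fit, R 4.3.3, Benjamini-Hochberg adjustment over all genes tested) in the 6 doxycycline libraries, in the 6 controls, and for the interaction in all 12. An SE is the absolute log2 fold change divided by the square root of F. Alternatives used DESeq2 1.42.0, limma 3.58.1 (voom), other filters, scalings and models, and left out each library. A gene was carried by 1 spleen library when, on log2 CPM with a prior count of 2 scaled over the 6 libraries, that library lay more than 1 log2 unit beyond the range of the bone marrow and the other 2 lay within that range widened by 0.5. The method was tested on simulated data with 1 spread per gene in all groups, so the wider spread of treated spleen was not covered.

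Named genes were, per direction, up to 8 separated genes of smallest p with a mean of at least 3 log2 CPM, up to 8 below that level with all 3 spleen libraries beyond, the 5 furthest carried genes per spleen library, fixed anchors such as Cbfb, Kit and Tek, and up to 4 members of smallest p, or the 3 most abundant, per list. The 37 gene lists and the genes shown were chosen with earlier results of these data known, and genes outside the rule were chosen after their values were seen. Same-numbered libraries of the 2 tissues did not deviate together (r = −0.08 to 0.05 under doxycycline), and the labels state no pairing, so the main models used none. With so few libraries these values cannot decide whether equal numbers mark the same animal. The 4 relapse libraries entered only the 16-library model.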

Additional observations from a re-analysis of the deposited data

Results flagged for a closer look

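For 23 genes the tissue difference under doxycycline departed from that of the controls, by edgeR's interaction test over 12 libraries (adjusted p 0.0113 to 0.0494). Those p-values rest on a spread shared among the groups and may be too small. Each value is the log2 tissue difference under doxycycline minus that in controls. The 11 positive ones were Phf11d (2.88), Dusp1 (4.42), Slc52a3 (1.70), Slc14a1 (2.72), Kdm2b (1.08), Rdm1 (2.05), Nr4a1 (4.04), Cenph (1.27), Filip1l (3.17), Hist1h3c (2.66) and Hspa12b (3.64). The 12 negative ones were Pou4f1 (−2.05), Itpr1 (−1.56), Sumf1 (−1.07), Maml2 (−2.53), Slc22a13 (−5.40), C430002N11Rik (−4.31), Tmem144 (−1.76), Ednra (−1.56), Pgam1 (−1.03), Car7 (−4.68), Slc22a13b (−3.27) and Samhd1 (−1.07). Each kept its sign in every alternative in which it was tested. The number called fell to between 0 and 8 when any 1 of the 9 libraries other than treated spleen was left out. It fell to 3 with the replicate number as a block, a pairing that the labels do not state. Phf11d, an interferon-induced gene, stood at 2.32, 2.36 and 2.6 CPM in control spleen, 9.53, 11.5 and 11.8 CPM in control marrow, 16.6, 14 and 9.78 CPM in treated spleen and 8.94, 7.92 and 7.71 CPM in treated marrow.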

How the results depend on the processing

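The count of 0 called genes in the 6-library comparison was 1 without a filter on low counts, 7 in the 16-library model, 57 in the 12-library model and 172 with the DESeq2 Wald test, and 0 to 414 when 1 library was left out, with 414 without spleen replicate 2. It was 0 under the replicate block, with DESeq2 size factors, under a filter at a mean count of 50, with limma-voom and sample quality weights. Control calls ranged from 1022 to 2457 with 1 library left out, 1208, 1113 and 1022 without spleen control replicate 1, 2 and 3. Interaction calls were 3 with the replicate block and 39 with limma-voom, and 0 to 1914 with 1 library left out, 1914 without treated spleen replicate 2. The block moved no other count of called genes by more than 1.5 times.

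Genes carried by 1 spleen library numbered 3240 at 1.5-fold beyond the range, 203 at 4-fold, 216 with the range not widened and 705 with a mean count of at least 50. In the same order replicate 1 carried 1737, 130, 129 and 424, replicate 2 carried 808, 49, 50 and 184, and replicate 3 carried 695, 24, 37 and 97, so replicate 1 carried the most in each. All 3 were beyond for 263 genes at 1.5-fold, 17 at 4-fold, 52 with the count filter, and 147 to 200 with 1 marrow library left out. Leaving out 1 spleen library, an alternative chosen after seeing the data, gave 1716 to 2930 separated genes on the higher and 1983 to 3010 on the lower side. It gave 10 to 18 separated cholesterol genes, 6 to 32 lower interferon genes and 5 to 11 higher histone genes, with the highest value of each without replicate 2. The causes were not tested. Of the 56 genes given with a fold change, 0 changed sign in any setting run, but they were chosen with their signs known. Of 518 list medians under alternatives, 26 moved by more than their spread, 12 of them for hypoxia and glycolysis. Genes under about 1 CPM rest on few reads.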

Other observations

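Glycolysis and hypoxia genes showed no common direction: of 38 tested, 3 were higher and 4 lower in treated spleen without overlap, with a median of 0.07. Mxi1, an antagonist of MYC, stood at 137, 147 and 156 CPM in bone marrow and 91.8, 95.4 and 119 CPM in spleen under doxycycline (−0.54 ± 0.16), and 27 of the 38 genes were lower in spleen replicate 2 than in every marrow library, against 37.4% of all genes. Without spleen replicates 1 and 2 in turn the list median was −0.15 and 0.21. Of 51 cytosolic ribosomal protein genes, 47 were higher in replicate 1 (41.5% of all genes) and 48 in replicate 3 (39.3%) than in every marrow library, against 4 in replicate 2 (36.5%), so that 1 was separated over all 3. Of 16 heat shock chaperone genes 3 were higher without overlap. Hspa8, the constitutive chaperone, stood at 1503, 1428 and 1638 CPM and 1922, 1567 and 2192 CPM.

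Of 10 tested genes of endothelial type that early blood cells express, 2 were higher without overlap, and Sox17, Gja4 and Dll4 were at 0 in all 6 libraries. Hspa12b, a heat shock protein relative of endothelium, stood at 2.6, 1.24 and 1.63 CPM in bone marrow and 7.22, 2.59 and 2.36 CPM in spleen. Spleen replicate 2 carried 2 of 22 monocyte and macrophage genes upward, while the sum of the list in it was inside the marrow range. Cd5l, secreted by tissue macrophages, stood at 1.42, 4.98 and 2.36 CPM in spleen replicates 1, 2 and 3 against 0.809, 2.0 and 1.16 CPM in bone marrow, and Cd163, the receptor for haemoglobin bound to haptoglobin, was the other.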
